A study of Mus musculus with 267 samples.

Results

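The Trem receptor cluster comprises 6 genes, Trem1, Trem3, Treml4, Treml2, Trem2 and Treml1, which lie in this order on the plus strand of chromosome 17 (mm10) and span 134.4 kb from the first start to the last end (chr17:48232768-48367176). Its regulatory regions were taken as every row of the deposited tag tables, and every peak of the transcription factor lists, whose centre lay within 25 kb of the annotated start of a member, each assigned to the nearest member. By this rule the cluster took 26 of 67742 regions of the C57 table, 18 of 54755 for SPRET, 23 of 60175 for PWK, 23 of 68932 for NOD and 20 of 54022 for BALB. The time course held 27 of 77955 regions, the EGR2 time course 12 of 30675 sites and each of the 2 tables of Egr2 genotypes 2 of 4677 sites. In the 54 peak lists 804 peaks met the rule. The C57 region closest to the limit lay 23.2 kb upstream of Trem2, with 31.89 and 54.90 normalized H3K27ac tags in basal macrophages, and the nearest regions beyond it lay 47.4 kb upstream of Trem1 (10.18 and 27.10) and 47.5 kb downstream of the Treml1 start (25.78 and 41.36).

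Chromatin immunoprecipitation with sequencing (ChIP-seq) was done in bone marrow-derived macrophages (BMDMs), which are grown from bone marrow cells in M-CSF, of female mice of 5 inbred strains. C57BL/6J, called C57 here, is the reference laboratory strain, BALB/cJ (hereafter BALB) and NOD/ShiLtJ (hereafter NOD) are others, and PWK/PhJ (hereafter PWK) and SPRET/EiJ (hereafter SPRET) derive from wild mice. Macrophages were left untreated (basal) or given interleukin-4 (IL-4) at 20 ng/mL for 24 h, and those of C57 also for 1 and 6 h. Macrophages with floxed Egr2 alleles on their own (Egr2flfl) or with a Cre driven from the lysozyme M locus of myeloid cells (LyzMCreEgr2flfl) were studied in basal and 24 h IL-4 conditions, so that both genotypes carry the floxed alleles and only the second the Cre. Most groups held 2 libraries, and the labels call them biological replicates without naming separate animals, so that p-values measure the spread between these libraries. The marks were H3K27ac (active enhancers and promoters), H3K4me2 (enhancers and promoters), H3K4me3 (promoters) and RNA polymerase II (Pol II), and the factors were PU.1, CEBPb, EGR2, STAT6 and PPARg. All of these describe chromatin, not mRNA.

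TREM receptors are cell surface proteins of the immunoglobulin superfamily that are carried mainly by myeloid cells. Trem1, Trem2 and Trem3 have no signalling motif of their own and pair with the adaptor Tyrobp (DAP12), which recruits the kinase Syk. Trem1 amplifies inflammatory responses of neutrophils and monocytes, whereas Trem2 binds lipids and lipoproteins and serves macrophages, microglia and osteoclasts. Treml1 is a receptor of platelet granules, Treml2 is found on lymphoid and myeloid cells, and Treml4 on macrophages and dendritic cells. IL-4 acts through STAT6 and moves macrophages towards an alternatively activated state.

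The sequences below are those on which the results turn, read from the mm10 plus strand over 200 bases around the centre of a C57 24 h IL-4 peak. Capitals mark a match to a motif searched on both strands, either that of STAT6 (TTC and GAA with 4 bases of any kind between them) or that of PU.1. The PU.1 motif is AGGAAGT, whose reverse complement reads ACTTCCT. The Treml2 upstream site (chr17:48286887-48287086, intergenic) is shown because its H3K27ac changed most in the time course. It is also a neighbourhood chosen from these samples as an example, so its response is not independent evidence.
Treml2 upstream site: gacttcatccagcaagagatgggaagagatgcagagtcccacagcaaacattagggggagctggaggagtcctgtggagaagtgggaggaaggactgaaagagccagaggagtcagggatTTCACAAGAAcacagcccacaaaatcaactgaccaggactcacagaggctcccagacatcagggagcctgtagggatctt
The Trem2 intron site (chr17:48347384-48347583) lies in the first intron of the coding transcripts and overlaps an exon of a retained-intron transcript. It is shown because it held the highest H3K27ac level of the cluster, and none of the motifs searched was found in it.
Trem2 intron site: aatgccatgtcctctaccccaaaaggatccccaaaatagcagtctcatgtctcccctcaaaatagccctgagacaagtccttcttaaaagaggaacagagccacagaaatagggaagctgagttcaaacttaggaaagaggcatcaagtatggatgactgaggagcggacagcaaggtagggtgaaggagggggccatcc
The Treml1 intron EGR2 site (chr17:48364518-48364717) is shown because H3K4me2 and CEBPb were called lower there in LyzMCreEgr2flfl at 24 h. Some other settings removed these calls.
Treml1 intron EGR2 site: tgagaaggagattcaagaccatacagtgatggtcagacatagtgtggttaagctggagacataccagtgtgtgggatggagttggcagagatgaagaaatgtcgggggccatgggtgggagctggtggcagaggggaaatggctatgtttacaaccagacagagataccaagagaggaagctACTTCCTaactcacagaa
The Treml1 downstream site (chr17:48379155-48379354, intergenic) is shown because Pol II was called there in PWK.
Treml1 downstream site: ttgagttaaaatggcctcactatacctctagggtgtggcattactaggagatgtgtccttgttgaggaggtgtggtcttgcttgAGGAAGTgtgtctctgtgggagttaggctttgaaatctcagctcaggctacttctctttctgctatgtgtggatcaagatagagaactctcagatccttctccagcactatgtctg

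Tag values are tags per 10000000 of the library total. Marks and Pol II were counted in windows of 1 kb, so that their levels compare directly between members. Windows were 300 bp for factors of the genotype table, and the sites of the EGR2 time course are listed with unequal widths below 1 kb. Library totals ran from 4691644 to 29050468 tags (median 12936233, 155 libraries). Summed H3K27ac at the start regions of 6 macrophage markers lay between 2699 and 2838 in the C57 basal libraries and between 1197 and 1228 at 24 h. Markers of B cells did not exceed 3.62 in any strain, and those of T cells had no region in the tables. Neutrophil markers (S100a8 and Camp, 1 or 2 of 4 listed genes with a region) summed to between 304 and 385 in basal SPRET, 131 and 465 in PWK, 127 and 414 in NOD, 94.7 and 250 in BALB, and 21.4 and 86.2 in C57. Megakaryocyte and platelet markers, mainly Pf4, summed to between 74.6 and 386 in basal C57 and between 41.6 and 42.0 at 24 h. The part of such cells in the levels at Trem1, Trem3 and Treml1 was not tested, and fewer cells of a type cannot be told apart from less signal per cell.

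Transcription factor binding extended over the whole cluster. Peaks merged into 72 sites, of which 51 had a PU.1 peak in some list, 40 a STAT6 peak, 35 a PPARg peak, 31 a CEBPb peak and 26 an EGR2 peak. PU.1 and CEBPb are lineage factors of macrophages, STAT6 is the factor that the IL-4 receptor activates, and EGR2 and PPARg are induced or engaged during the IL-4 response. All 5 factors occupied 15 sites, whereas 18 sites stood in 1 list only. One site, 21.9 kb upstream of Trem2 and within the last exon of the neighbouring gene B430306N03Rik, was listed in 54 of 54 lists. The Trem2 start was listed in 51 and the Trem2 intron site, 1.1 kb downstream of the start, in 41, followed by the region 3.9 kb upstream of Treml1 in 40, the Trem3 start in 35 and the Trem1 start in 34.

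The sites differed in which factor filled them. At the Trem2 intron site PU.1 was listed in all 10 of its lists with 250 to 451 tags, while CEBPb was listed in 8 with 24 to 60 tags. At the Trem2 start both were listed in all 10 lists, CEBPb with 238 to 468 tags and PU.1 with 142 to 331. STAT6 at the Trem2 start was listed in all 12 lists, with 78 tags in basal C57 and 365, 262 and 191 tags at 1, 6 and 24 h. These tag counts belong to lists whose depth differs, and are values of one list each. Near the end of Treml4, the site 10.8 kb downstream of its start was listed for CEBPb in 10 lists and for PPARg in 3, with no PU.1, EGR2 or STAT6, and the site 10.0 kb downstream for PU.1 alone in 6 lists.

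The lists of 24 h IL-4 held 443 cluster peaks and the basal lists 320, and 276 of the former overlapped a basal peak of the same factor and strain by 1 bp or more. Overlap was not computed over all peaks of the lists, so this count does not set the cluster apart from other regions. PU.1 had 150 basal and 152 24 h peaks, CEBPb 44 and 74, STAT6 54 and 87, EGR2 32 and 54, and PPARg 40 and 76. Summed over strains the lists of CEBPb, EGR2, STAT6 and PPARg were longer at 24 h, whereas those of PU.1 were shorter (448746 peaks in basal and 425996 at 24 h). As a share of its lists, the cluster held 0.0385% of basal and 0.0395% of 24 h CEBPb peaks, 0.0394% and 0.0393% of EGR2 peaks, 0.0514% and 0.0576% of STAT6 peaks, 0.0334% and 0.0357% of PU.1 peaks, and 0.0618% and 0.0452% of PPARg peaks. With each pair of lists shortened to equal length the totals were 301 basal and 325 24 h peaks.

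**Figure D1:**
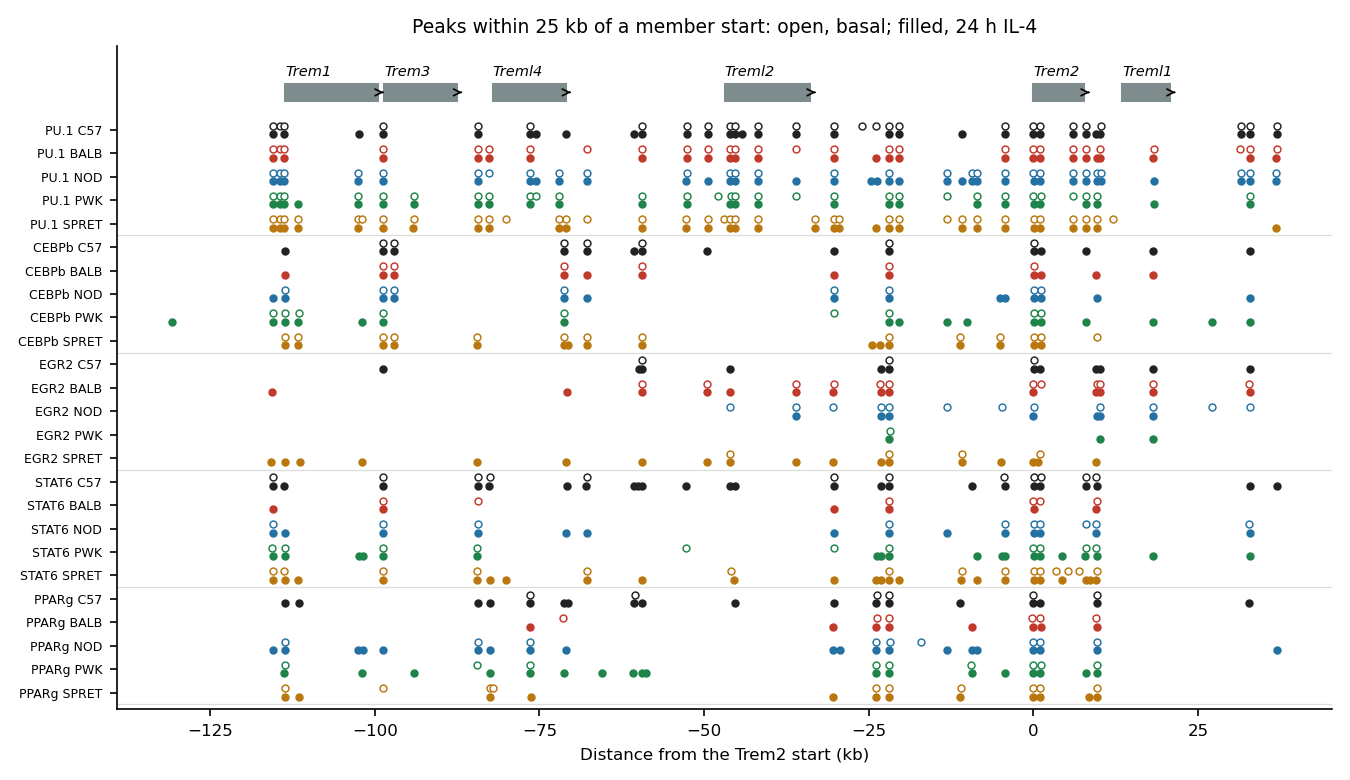
Factor peaks across the Trem cluster by distance from the Trem2 start in kb (x axis), with 1 row for each factor and strain; open marks are basal and filled marks 24 h IL-4 lists. The site 21.9 kb upstream of Trem2 and the Trem2 start are filled in nearly every row, and the Treml2 upstream site has no mark in NOD.

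The Treml2 upstream site differed between strains in its lists. PU.1 was listed there with 121 tags in basal and 192 in 24 h C57, 45 and 40 in PWK, 155 and 110 in SPRET, and 129 and 141 in BALB. In NOD none of the factor lists held it. CEBPb was listed with 137 and 117 tags in SPRET, 58 and 98 in C57, and 31 and 119 in BALB. STAT6 was listed in C57 only with IL-4, with 149, 138 and 57 tags at 1, 6 and 24 h, and in SPRET at 24 h with 82 tags. EGR2 was listed in C57 with 41 tags in basal, 76 at 1 h and 163 at 24 h, and also in both BALB lists and at 24 h in SPRET. Absence from a list says only that no reproducible peak was called.

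Trem2 held by far the highest level of chromatin marks in the cluster. At the Trem2 intron region, 1.1 kb downstream of the start, basal H3K27ac was 902.1 ± 6.12 normalized tags in C57 (SD, n = 2) and 818.8, 1050, 840.9 and 978.3 in BALB, NOD, PWK and SPRET. Only 0.378% of all C57 regions and 0.110% of all NOD regions were higher. At 24 h the means were 1072 in SPRET, 945.5 in NOD, 833.1 in PWK, 745.1 in BALB and 613.7 ± 54.0 in C57. The C57 libraries did not overlap between conditions, whereas those of the other strains did. The median log2 difference over all C57 regions was -0.28, and at 24 h 0.168% of all C57 regions were higher than the Trem2 intron region. At the Trem2 start H3K27ac was 750.3 and 859.9 in basal C57 and 580.6 and 593.3 at 24 h, H3K4me3 was 411 and 441.1 against 265.8 and 343.4, and Pol II lay between 315.4 and 377.8 in 4 basal libraries and between 310.8 and 406.6 in 3 libraries at 24 h. The Pol II groups overlapped.

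The other starts carried far lower levels. Basal H3K27ac in C57 was 26.38 and 86.16 near the Treml2 start, 16.28 and 22.1 near the Treml4 start, 4.07 and 17.11 at the Trem1 start and 6.78 and 7.13 at the Trem3 start. Trem2 lay above all of them and Treml2 above Treml4, whereas the libraries of Treml4 and Trem1 overlapped, as did those of Trem1 and Trem3. No table held a region within 1 kb of the Treml1 start. Its highest region, 3.9 kb upstream, had 145.3 and 149.5 basal tags in SPRET, 325.7 and 369.1 in PWK, 357.1 and 381.3 for BALB, and 404.8 and 477.1 in NOD, while both C57 libraries were higher still with 496.3 and 530.5. The SPRET libraries lay below all others there.

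Trem1 and Trem3 varied between strains. At the Trem1 start, basal H3K27ac was 11.11 and 32.42 in NOD, 28.97 and 56.65 in PWK, 7.69 and 9.88 in SPRET and 3.67 and 7.15 in BALB. At 24 h the SPRET libraries had 28.21 and 40.92, above both basal values, and the NOD libraries 25.33 and 60.03, which overlapped theirs. At the Trem3 start, basal H3K27ac was 26.99 and 51.53 in NOD and 25.84 and 80.68 in PWK, against 11.85 and 15.39 in SPRET. Levels of strains come from separately made tables and were not tested against each other.

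**Figure D2:**
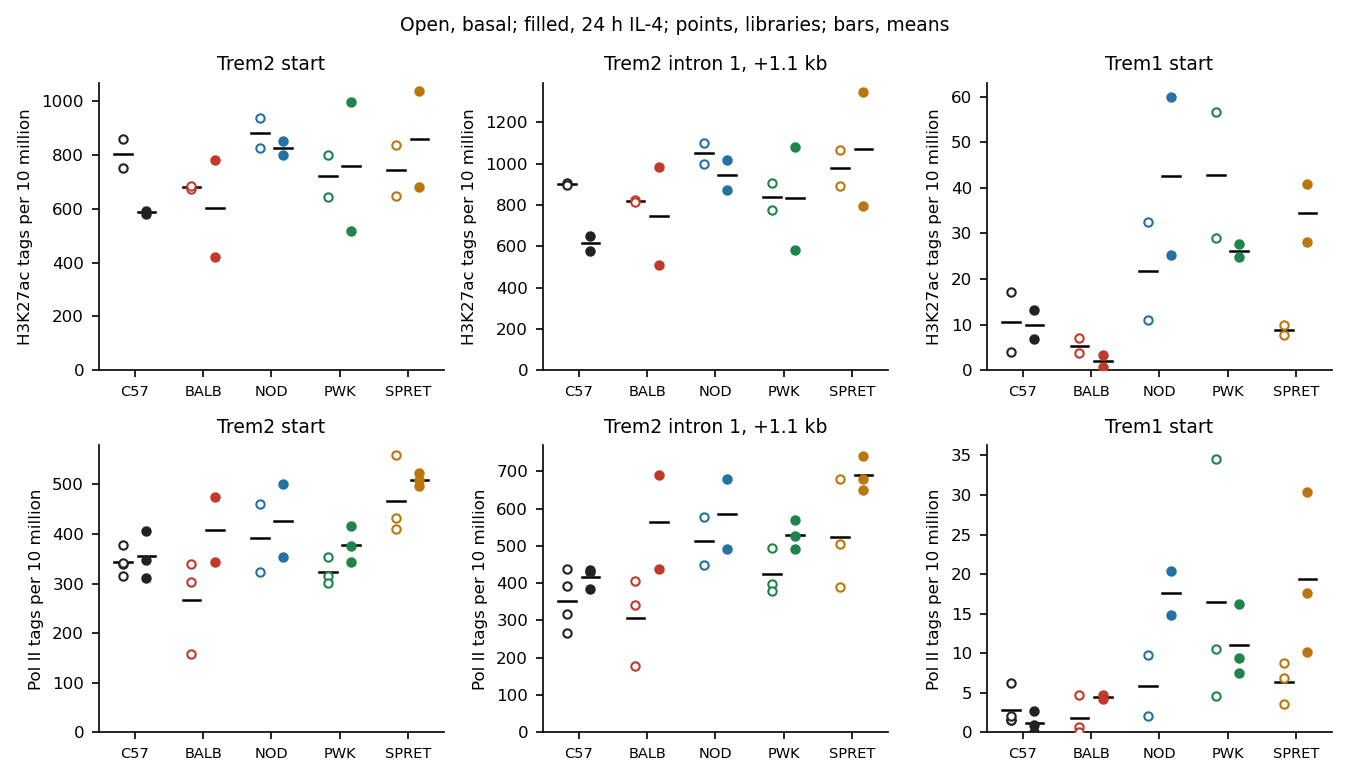
H3K27ac (top) and Pol II (bottom) in normalized tags at the Trem2 start, the Trem2 intron and the Trem1 start by strain; points are libraries, open basal and filled 24 h IL-4. Each library at the Trem2 regions lies above the Trem1 start of its strain, and the highest H3K27ac library of the Trem1 start has 60.03 tags.

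The question of which cluster regions responded to 24 h of IL-4 within a strain was addressed with limma on log2(normalized tags + 1), adjusted by Benjamini-Hochberg over the whole table. For H3K27ac limma called 0 cluster regions in each strain, where it called 1.19% of all regions in SPRET, 0.535% in PWK, 0.0566% in NOD, 2.26% in BALB and 0% in C57. Cluster regions with an unadjusted p under 0.05 numbered 5, 2, 2, 3 and 8 in that order. DESeq2 called 3 in C57 and 1 in BALB, and edgeR 1 in BALB. Here and below, counts by unadjusted p, DESeq2 or edgeR are given without the share of all regions. They do not set the cluster apart from other regions. The count of 0 in C57 carries little information. Without a filter limma recovered 0% of 8-fold changes simulated there (67742 regions), against 98% with the filter on low values and 97% for edgeR. The median log2 difference of cluster regions was 0.28 in SPRET, 0.09 in PWK, -0.09 in NOD, -0.05 in BALB and 0.19 in C57, beside -0.09, -0.18, -0.20, -0.30 and -0.28 over all regions.

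Pol II gave 1 call. Limma called 0 cluster regions in C57, BALB, NOD and SPRET and 1 in PWK, beside 0.319%, 0.707%, 0%, 1.05% and 1.72% of all regions, and unadjusted p under 0.05 held for 5, 3, 1, 6 and 7. DESeq2 and edgeR each called 1 in PWK and 1 in SPRET. The PWK region lay 19.3 kb downstream of the Treml1 start, at the Treml1 downstream site printed above. Its Pol II rose from 6.35, 9.79 and 7.58 tags in basal macrophages to 25.89, 23.7 and 25.66 at 24 h (log2 difference 1.57 ± 0.37 SE, limma adjusted p 0.0485). The groups did not overlap, but the call was lost when any of the 6 libraries was left out (limma adjusted p between 0.0981 and 0.21). H3K27ac at this region was 5.15 and 15.66 in basal and 22.9 and 53.45 at 24 h in PWK, and did not pass limma.

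Same-numbered Pol II libraries of C57, PWK and SPRET deviated together, so these samples were also fitted with the replicate number as a block. In PWK 6 cluster regions then passed limma with the block, beside 9.78% of all regions, and in SPRET 5, beside 8.39%. The Treml1 region was among those of PWK (adjusted p 2.946e-04). Others were 23.1 kb downstream of the Treml2 start, where Pol II was 4.94, 4.90 and 7.58 in basal and 18.69, 19.39 and 15.39 at 24 h, and 9.4 kb upstream of Trem2, where it was 3.53, 1.4 and 3.79 against 8.63, 12.93 and 9.41. The SPRET regions included the Trem1 start, with 8.71, 6.85 and 3.59 in basal and 30.42, 17.67 and 10.16 at 24 h, and the Treml2 upstream region, with 25.16, 41.11 and 37.99 against 81.97, 81.99 and 58.18. In each of these named regions the groups did not overlap. In C57 the block gave 0 calls.

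H3K4me2 and H3K4me3 gave 0 calls in the cluster by limma in each strain. Over all regions limma called 0.236%, 0.0111%, 0.189%, 0.314% and 0% for H3K4me2 in C57, BALB, NOD, PWK and SPRET, and 0%, 0%, 0.0203%, 0.0349% and 0% for H3K4me3. Unadjusted p under 0.05 held for 8, 0, 1, 3 and 1 cluster regions for H3K4me2 and 10, 1, 3, 1 and 2 for H3K4me3. Neither edgeR nor DESeq2 called a cluster region for these marks.

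A fold rule without a test, which asks for group means of tags plus 1 at least 2.5-fold apart and at least 16 tags (8 for Pol II) in either group, took 11 higher and 2 lower of 110 cluster regions for H3K27ac and 12 higher and 0 lower for Pol II. Regions higher in H3K27ac numbered 2 of 18 in SPRET, 2 of 23 in PWK, 1 of 23 in NOD, 1 of 20 in BALB and 5 of 26 in C57, where 2.64%, 3.1%, 3.24%, 2.84% and 3.46% of all regions were higher. The 2 lower regions were both in NOD, beside 5.14% of all NOD regions, while 0.939% in SPRET, 3.01% in PWK, 5.13% in BALB and 7.55% in C57 were lower with none in the cluster. For Pol II the cluster counts were 3, 3, 1, 3 and 2 higher in C57, BALB, NOD, PWK and SPRET, beside 1.57%, 5.91%, 2.35%, 2.66% and 1.54% of all regions, and 0 lower beside 1.66%, 0.929%, 1.25%, 0.932% and 0.805%.

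Of the 5 regions past this rule for H3K27ac in C57, 4 were assigned to Treml2 and 1 to Trem2. The largest difference was at the Treml2 upstream region, 12.5 kb upstream of the start, where H3K27ac was 21.71 and 34.94 in basal and 125.63 and 166.7 at 24 h IL-4 (5.02-fold). Its overlapping neighbours 13.1 and 13.8 kb upstream, which share reads with it or with each other, were 3.37-fold and 3.08-fold higher. The region 23.1 kb downstream of the Treml2 start, in an intron of B430306N03Rik, had 19 and 37.79 against 71.3 and 125.35 (3.38-fold). In BALB the Treml2 upstream region had 21.31 and 8.94 against 60.99 and 37.16 (3.11-fold). In SPRET it had 80.36 and 128.41 against 236.27 and 164.77, with no overlap but below the 2.5-fold limit. The tables of NOD and PWK held no row there, so its level was not measured in them.

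Mean Pol II at the Treml2 upstream region was higher at 24 h than in basal macrophages in C57, BALB and SPRET, whose SPRET values are given above. In C57 it was 40.56, 8.83, 10.72 and 9.11 in basal and 42.02, 42.32 and 32.07 at 24 h, so that basal replicate 1 overlapped the 24 h libraries and the others did not. In BALB it was 8.3, 1.78 and 4.38 against 19.18 and 23.8 (3.86-fold).

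Regions of the other members also passed the fold rule. The Trem1 start in SPRET was 3.63-fold higher in H3K27ac and 2.77-fold in Pol II, and Pol II at the Trem1 start was 2.7-fold higher in NOD. The region 14.3 kb downstream of the Treml4 start was 2.78-fold higher in H3K27ac in SPRET (6.84 and 7.9 against 17.63 and 26.92). In NOD H3K27ac at the Trem3 start went from 51.53 and 26.99 to 16.64 and 12.95 (0.392 times the basal level). At 2.3 kb upstream of Treml4 it went from a mean of 56.8 to 17.9 tags (0.327 times). In the same libraries the mean at S100a8 went from 239 to 131 and at Camp from 31.9 to 9.21 tags. Macrophage markers also fell there, such as Fcgr1 from 386 to 100 and Cd68 from 707 to 545. The part of neutrophils in these falls was not tested. The region 19.4 kb downstream of the Treml1 start passed the rule in H3K27ac in NOD (3.24-fold) and PWK (3.43-fold) and in Pol II in C57 (3.02-fold), BALB (2.63-fold) and PWK (2.93-fold).

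**Figure D3:**
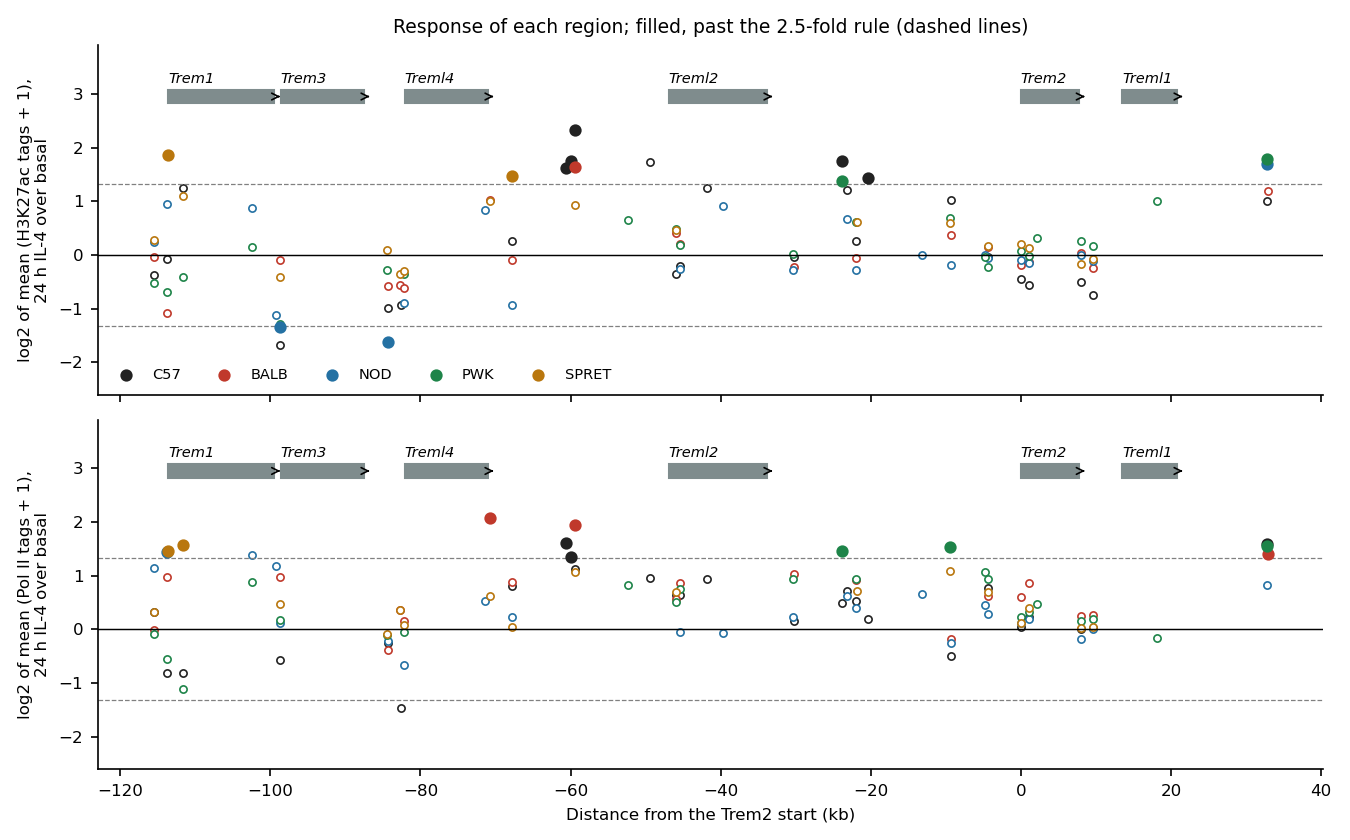
Difference between 24 h IL-4 and basal libraries at each cluster region, as log2 of the ratio of means of tags plus 1 (y axis), by distance from the Trem2 start in kb (x axis) and strain (colour), for H3K27ac and Pol II; filled points pass the 2.5-fold rule, whose limits are the dashed lines. The highest C57 H3K27ac point is the Treml2 upstream region at 5.02-fold.

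The time course in C57 set 1, 6 and 24 h of IL-4 each against basal, and the times were not tested against each other. It shares its basal and 24 h libraries with the C57 comparison above, and its 3 contrasts share their basal libraries. Limma called 0 of 27 cluster regions for H3K27ac at 1 h, 3 at 6 h and 0 at 24 h, beside 9.72%, 5.13% and 1.45% of all regions. Unadjusted p under 0.05 held for 5, 8 and 8 cluster regions, while DESeq2 gave 1, 5 and 6 calls and edgeR 0, 5 and 1. The median log2 difference of the cluster was -0.31, 0.78 and 0.35 at 1, 6 and 24 h, beside -0.63, -0.14 and -0.22 over all regions.

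The 3 regions that limma called at 6 h, all higher, were assigned to Treml2 as the nearest start. Of these, the Treml2 upstream region and its neighbour 13.1 kb upstream overlap, so they share reads. At the Treml2 upstream region H3K27ac rose from 21.03 and 34.94 in basal to 183.28 and 183.78 at 6 h (log2 difference 2.71 ± 0.64 SE, limma adjusted p 0.0197). At 1 h it had 110.54 and 25.47 and at 24 h 125.63 and 166.05. The 6 h and 24 h libraries lay above both basal ones, and the 1 h libraries were far apart. Its neighbour 13.1 kb upstream rose from 12.89 and 43.5 to 137.08 and 167.96 (2.62 ± 0.65, adjusted p 0.0261), and the region 23.1 kb downstream of the start rose from 19 and 37.79 to 143.24 and 137.53 (2.34 ± 0.63, adjusted p 0.0384). Each call was lost without basal replicate 1 (limma adjusted p 0.0828 at the Treml2 upstream region, 0.204 at its neighbour and 0.186 at the downstream region), without 6 h replicate 1 (0.206, 0.205 and 0.288) or without 6 h replicate 2 (0.175, 0.221 and 0.231), and the downstream call also without basal replicate 2 (0.0689).

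Other cluster regions did not pass the test. The region 23.2 kb upstream of Trem2 overlaps the called region 23.1 kb downstream of the Treml2 start. Its H3K27ac was 31.89 and 54.19 in basal and 207.93 and 180.13 at 6 h, without overlap between the groups. The region 13.8 kb upstream of Treml2 had 8.82 and 14.97 in basal and 49.29 and 63.9 at 6 h, also without overlap. The Trem2 intron region had 913.17 and 907.71 in basal, 790.8 and 258.17 at 1 h, 963.39 and 758.25 at 6 h and 651.9 and 580.17 at 24 h. Replicate 2 at 1 h was the lowest library there. The region 11.3 kb downstream of the Treml4 start had 16.96 and 31.37 in basal, 42.36 and 62.07 at 6 h and 65.36 and 81.38 at 24 h, without overlap between basal and either later time.

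For Pol II in the time course limma called 0 cluster regions at 1, 6 and 24 h, beside 0.0911%, 0.566% and 0.677% of all regions. Unadjusted p under 0.05 held for 0, 8 and 6, edgeR called 0, 1 and 0, and DESeq2 0, 3 and 0. At the Treml2 upstream region Pol II was 36.05 in the 1 library at 1 h, 56.95 and 63.38 at 6 h, and 42.02, 42.32 and 32.07 at 24 h. The 6 h libraries lay above all 4 basal ones.

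EGR2 binding was measured at 12 cluster sites. Limma called 0 at 1, 6 and 24 h, beside 0%, 0% and 0% of all sites, with 0, 1 and 0 at an unadjusted p under 0.05, and edgeR and DESeq2 called 0. As limma called no site of the whole table, its 0 in the cluster carries little information. The C57 EGR2 lists held 3 cluster peaks of 8437 in basal and 12 of 29407 at 24 h (0.0356% and 0.0408%). The strongest site, 21.8 kb upstream of Trem2, had 95.53 and 94.01 tags in basal, 45.16 and 92.58 at 1 h, 96.02 and 198.63 at 6 h and 209.15 and 152.65 at 24 h. At the Treml2 upstream site EGR2 was 38.87 and 52.38 in basal, 21.68 and 38.58 at 1 h, 19.2 and 90.66 at 6 h and 95.6 and 49.92 at 24 h, so that the groups overlapped. At the Treml1 intron EGR2 site it was 22.01 and 10.74 in basal and 39.95 and 33.6 at 24 h, without overlap. That site belongs to the set chosen by the authors as EGR2 peaks induced at 24 h of IL-4, so its rise is not independent evidence.

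**Figure D4:**
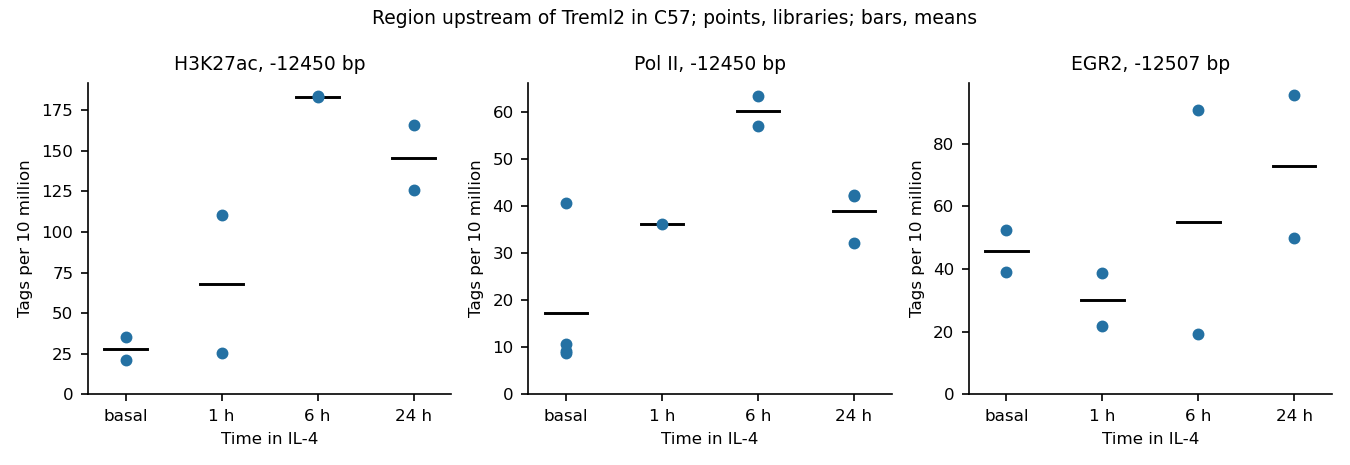
H3K27ac, Pol II and EGR2 in normalized tags at the Treml2 upstream region over 0, 1, 6 and 24 h of IL-4 in C57; points are libraries and bars are means. H3K27ac reaches 183.28 and 183.78 at 6 h, and 1 basal Pol II library stands at 40.56 above the other 3.

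Regions present in the tables of all strains allow a mean response over strains and a test of whether the response differed between them. Of 29462 matched regions 12 belonged to the cluster, and the Treml2 upstream region was not among them. The test of the difference between strains called 0 cluster regions for each mark, beside 0% (H3K27ac), 0% (Pol II), 0% (H3K4me2) and 0.00339% (H3K4me3) of all regions, and unadjusted p under 0.05 held for 1, 2, 0 and 0. EdgeR and DESeq2 also called 0 in the cluster.

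For the mean response limma called 2 of 12 for H3K27ac (35.5% of all regions), 2 for Pol II (14.7%), 10 for H3K4me2 (73.9%) and 2 for H3K4me3 (14%). Over all regions the median log2 differences of H3K27ac, Pol II, H3K4me2 and H3K4me3 were -0.31, 0.02, -0.53 and -0.10, and over the 12 they were -0.10, 0.33, -0.51 and 0.24. All 10 H3K4me2 calls were lower, and 0 remained with median-ratio scaling.

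H3K27ac rose 9.4 kb upstream of Trem2, by 0.52 ± 0.20 on the log2 scale (limma adjusted p 0.0485). With median-ratio scaling the log2 difference there was 0.84. At the Trem3 start it fell (-0.92 ± 0.24, limma adjusted p 0.00572). Median-ratio scaling gave a log2 difference of -0.63 at the Trem3 start (limma adjusted p 0.0735). The call 9.4 kb upstream of Trem2 was lost in 16 of 20 fits that left out a library (limma adjusted p up to 0.124). In NOD the libraries there had 102.24 and 118.27 in basal and 92.58 and 101.31 at 24 h. At the Trem3 start the 24 h libraries lay below the basal ones in C57, NOD and PWK and overlapped them in BALB and SPRET. The neutrophil markers, whose basal sums are given above, summed at 24 h to between 126.1 and 154.1 in NOD, 99.25 and 288.2 in PWK, 50.5 and 131 for BALB, 42.66 and 54.32 for C57, and 332.4 and 346.8 for SPRET. Their part in the Trem3 result was not tested.

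Pol II rose at both Trem2 regions that were called. At 21.9 kb upstream of Trem2, the site of all 54 lists, it rose by 0.74 ± 0.17 (limma adjusted p 0.00221, at most 0.00961 with any library left out). There it was 14.69, 28.47 and 14.22 in basal BALB against 31.97 and 42.05, 33.15, 27.98 and 25.76 in basal PWK against 46.02, 57.11 and 65.85, and 69.67, 126.39 and 113.98 in basal SPRET against 136.9, 180.24 and 195.77. The groups did not overlap in these 3 strains and overlapped in C57 and NOD. This site lies in the last exon of B430306N03Rik, and its assignment to Trem2 rests on distance alone. At the Trem2 intron region Pol II rose by 0.42 ± 0.14 (limma adjusted p 0.0314, with 0.0573 by edgeR and 0.0322 by DESeq2). In PWK it lay between 380.3 and 495.2 in basal and between 492.4 and 569.6 at 24 h. The groups overlapped there and in C57, NOD and SPRET, but not in BALB. The limma call at the Trem2 intron region was lost in 5 of 28 fits that left out a library (adjusted p up to 0.0979).

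H3K4me3 fell at the Trem2 start by 0.32 on the log2 scale (SE 0.09, limma adjusted p 0.0247), a call that median-ratio scaling removed (-0.16, adjusted p 0.176), and rose 3.9 kb upstream of Treml1 (0.87 ± 0.28, adjusted p 0.0375), where basal C57 held only 2.18 and 3.9 tags. Leaving out a library removed the first call in 8 of 20 fits and the second in 12.

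The Egr2 genotypes were compared at a chosen set of IL-4-induced EGR2 sites, 2 of which lie at Treml1. A region in an intron of Egr2 (chr10:67538716-67539716) had 152.77 and 197.82 H3K27ac tags in Egr2flfl and 161.04 and 143.36 in LyzMCreEgr2flfl macrophages at 24 h, but the deleted exons are not given in the sources used here, so it does not check the genotype labels. Levels were lower in LyzMCreEgr2flfl over all sites, with median log2 differences at 24 h of -0.50 for H3K27ac, -0.16 for H3K4me2, -0.33 for PU.1, -1.14 for CEBPb, -0.79 for STAT6 and -1.28 for PPARg, and each difference below is to be read against these.

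At 24 h limma called the Treml1 intron EGR2 site, 4.7 kb downstream of the start, lower in LyzMCreEgr2flfl for H3K4me2 and CEBPb, 1 of 2 cluster sites each beside 9.09% and 8.25% of all sites. The other cluster site passed for none of the targets. H3K4me2 had 30.07 and 19.74 tags in Egr2flfl and 2.89 and 9.23 in LyzMCreEgr2flfl (log2 difference -2.01 ± 0.51, adjusted p 0.00343; -1.89 and 0.0493 with median-ratio scaling). This call was lost without Egr2flfl 24 h replicate 1 (adjusted p 0.153) or LyzMCreEgr2flfl 24 h replicate 1 (0.224), and neither edgeR (0.0568) nor DESeq2 (0.178) gave it. CEBPb had 15.12 and 16.25 tags against 2.04 and 0.0 (-3.26 ± 1.03, adjusted p 0.0311; -2.45 and 0.246 with median-ratio scaling, 0.266 by edgeR, none given by DESeq2). This call was lost when any of the 4 libraries at 24 h was left out (adjusted p 0.375 and 0.0543 for replicates 1 and 2 of Egr2flfl, 0.208 and 0.265 for those of LyzMCreEgr2flfl). In both cases the genotypes did not overlap at 24 h, and in basal macrophages H3K4me2 was 5.41 and 6.29 against 5.64 and 3.94.

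The remaining factors at the Treml1 intron site had values in the same direction that did not pass the test. PU.1 had 23.13 and 19.78 against 5.57 and 11.11 at 24 h (-1.33 ± 0.46, limma adjusted p 0.0808) and 16.15 and 9.91 against 2.89 and 5.69 in basal macrophages (-1.42 ± 0.46, adjusted p 0.332). H3K27ac had 9.05 and 10.28 against 4.16 and 2.9 (adjusted p 0.109) and STAT6 3.73 and 8.85 against 2.06 and 1.13 (adjusted p 0.396). PPARg was at 1.02 and 0.0 against 0.0 and 0.0, so little or no signal was measured there. Pol II, with 1 library each, had 49.34 tags in Egr2flfl and 39.93 in LyzMCreEgr2flfl at 24 h.

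Over all sites limma called 24.7% for H3K27ac, 9.45% for PU.1, 0.0214% for STAT6 and 0% for PPARg at 24 h, with 0 cluster sites each. In basal macrophages it called 0.192% for H3K27ac, 0.0855% for H3K4me2, and 0% for PU.1, CEBPb, STAT6 and PPARg, again with 0 in the cluster. The interaction of genotype and IL-4 was called at 0.0428% of sites for H3K4me2 and 0% for the other targets, and at 0 cluster sites, so a genotype difference particular to IL-4 was not shown (H3K4me2 at the Treml1 intron site -1.75 ± 0.73, limma adjusted p 0.532). Of these 0 counts, unadjusted p under 0.05 held for 1 cluster site for H3K27ac and PU.1 at 24 h, PU.1 in basal and the H3K4me2 interaction, and for 0 otherwise, and edgeR and DESeq2 called 0.

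**Figure D5:**
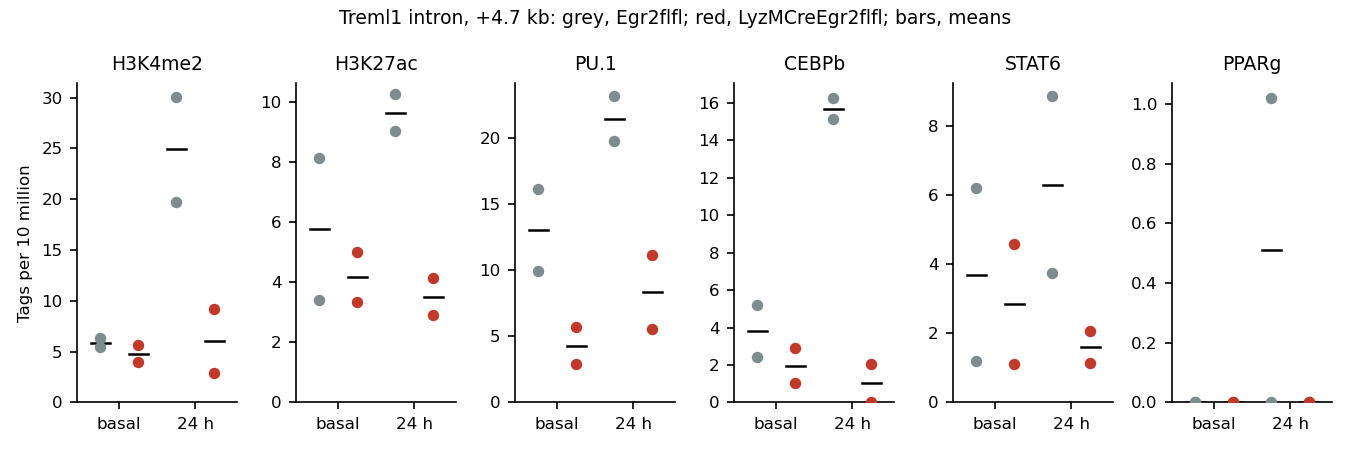
Normalized tags at the Treml1 intron EGR2 site for H3K4me2, H3K27ac, PU.1, CEBPb, STAT6 and PPARg in basal and 24 h IL-4 macrophages; points are libraries, grey Egr2flfl and red LyzMCreEgr2flfl. At 24 h the H3K4me2 and CEBPb points of the genotypes do not overlap, and PPARg stays near 0.

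The letters of the peaks were compared with motifs searched on both strands over 200 bases of each C57 24 h peak. The EGR motif GCGTGGG was in 0 of 12 cluster EGR2 peaks, against 9.09% of all EGR2 peaks, while the STAT6 motif was in 4 of 12, against 6.71%. The PU.1 motif AGGAAGT was in 10 of 31 cluster PU.1 peaks (37.3% of all), TTGCNNAA in 2 of 15 CEBPb peaks (35.8%), the STAT6 motif in 4 of 24 STAT6 peaks (12.3%) and the DR1 repeat bound by PPARg in 0 of 18 PPARg peaks (2.18%). These counts describe the letters of these windows only. RefSeq promoters (GRCm38.p6), windows of 300 bases that extend past the start, were at hand for Trem1, Treml4, Trem2 and Treml1. The Trem1 promoter held the PU.1 motif, as did 9.35% of 32851 promoters, and the Trem2 window held TTGCNNAA downstream of the start (bases 273 to 280), as did 10.8%.

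Signalling partners, ligands and sheddases of the receptors, and other Tyrobp-coupled receptors (Cd300lb and Pilrb1 among them), were read at their start regions. The list held 26 genes, 15 of which were matched in all strains. For H3K27ac 7 of the 15 fell and 0 rose in the mean over strains, with a median log2 difference of -0.49 beside -0.31 over all regions, of which 35.5% were called in either direction. Fitted in single strains, 2 of 21 fell in BALB (Pilrb1 and Pilrb2) and 0 passed in the others, with 21 measured in C57 and NOD and 19 in PWK and SPRET. The 7 genes called over strains were the adaptors Tyrobp (-0.90 ± 0.17) and Hcst (-0.84 ± 0.16), the effectors Card9 and Vav1, the phosphatases Inpp5d and Ptpn6, and the sheddase Adam17. For Pol II the receptor Cd300lb rose (0.45 ± 0.15, limma adjusted p 0.0352), and Tyrobp (-0.51 ± 0.13) and Vav1 fell, 3 of 15 beside 14.7% of all regions. For H3K4me3 Tyrobp, Vav1, Malt1 and Inpp5d fell, 4 of 15 beside 14%. In C57 the mean H3K27ac at the Tyrobp start was 987.4 tags in basal and 403.3 at 24 h. In the same libraries the 6 macrophage markers together went from between 2699 and 2838 to between 1197 and 1228. In the time course, where 21 of the 26 were measured, 6 fell at 1 h, 2 at 6 h (Apoe and Pilrb1) and 1 at 24 h (Pilrb1), and 0 rose, beside 9.72%, 5.13% and 1.45% of all regions called in either direction. Reads of Pilrb1 and its paralog Pilrb2 may be shared, so these are uncertain.

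Across the 8 H3K27ac libraries of the time course, the genes whose start regions most resembled that of Trem2 were Skap2 (Pearson r = 0.994), Rtf2 (0.993), Psen2 (0.992), Ireb2 (0.991) and 2310039H08Rik (0.991), of 9442 genes. The libraries share the differences in enrichment between time points, and the values describe likeness over 8 libraries only.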

How the data were processed

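ChIP-seq reads had been aligned by the authors to the genome of each strain (bowtie2), shifted to mm10 positions (MMARGE) and counted as tags (HOMER). The submitters' processing notes also name the builds mm10 and hg38. The deposited tag values are signal, which the authors scaled so that a library holds 10000000 tags. Every value gave a whole number of reads within 0.02 reads when multiplied back, so reads were recovered for the count tests. Scaling by library totals leaves differences in enrichment uncorrected. The tables held 4 value columns that matched no labels, which were left out. In the authors' peak lists, made with HOMER and IDR from replicates, PU.1, CEBPb, STAT6 and C57 EGR2 lists (36) carry whole counts and a deposited score per peak, whereas 18 lists (PPARg and the other EGR2 lists) carry fractional counts on another scale, whose values are not printed. Whole counts are given for named sites, and counts and score otherwise served only to shorten lists.

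Regions were tested with limma 3.58.1 in R 4.3.3 on log2(tags + 1), without a filter, at an adjusted p under 0.05 over the whole table. Log2 differences on this scale understate changes of low regions. Each strain and mark had its own fit of basal and 24 h libraries, each time course took all its times together, the genotypes had a fit of genotype, IL-4 and their interaction, and the 5 strains a fit at regions matched within 500 bp. EdgeR 4.0.16 and DESeq2 1.42.0 on recovered reads were alternatives, beside other scaling, pseudocount, filter, distance and replicate settings. Python 3.11.15, pandas 2.3.3 and numpy 2.4.6 handled tables. Same-numbered Pol II libraries correlated in their deviations from group means by 0.118, 0.24 and 0.207 in C57, 0.469, 0.201 and 0.282 in PWK and 0.31, 0.258 and 0.224 in SPRET, which pairs them from the data. Tests were checked on simulated data, where limma recovered 49% of 3-fold and 99% of 8-fold Pol II changes in PWK (60175 regions), 14% and 91% of H3K27ac changes at 6 h (77955 regions), and 0% of both in C57 H3K27ac at 24 h (67742 regions).

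Gene starts came from GENCODE vM21. The members and lists were chosen with earlier results of these data known. Named regions were each member's start region and highest distal region, the largest changes of each comparison and cluster sites of the EGR2 tables, of which 1 is not reported here, and further regions were named after their values were seen.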

Additional observations from a re-analysis of the deposited data

Results flagged for a closer look

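Pol II libraries of basal C57 macrophages contained 8 values that stood apart from the other 3 of their group by Dixon's criterion, among 53 groups examined, where chance marks about 1 in 20. The strain table and the time course hold the same 4 libraries, so these are 4 regions seen in both. At the Treml2 upstream region replicate 1 had 40.56 normalized tags in both tables, against 8.83, 10.72 and 9.11. At the Trem1 start replicate 1 had 6.24 in the strain table, against 1.6, 1.61 and 2.03, and 5.62 in the time course. At the region 19.3 kb downstream of the Treml1 start replicate 1 had 8.11 in both tables, against 4.81, 4.82 and 5.06. At the region 2.0 kb downstream of the Trem1 start replicate 4 had 4.05 in both, against 0.8, 1.07 and 1.25.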

How the results depend on the processing

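Counts below are cluster regions past the threshold. The share of all regions called also changed with the setting, as given above for Pol II with the block. Apart from that case the shares under alternatives are not given, so these counts do not set the cluster apart from other regions. Of the counts under alternatives, 352 stayed within 1.5 times the reported one and 66 moved, and 55 of 70 values of single regions stayed on their side of the threshold while 15 lost it. With the replicate number as a block, H3K27ac calls were 13 in C57, 3 in BALB, 4 in NOD, 2 in PWK and 3 in SPRET, Pol II calls 1 in NOD, 6 in PWK and 5 in SPRET, H3K4me3 calls 7 in C57 and 3 in PWK, and H3K4me2 calls 1 in PWK and 1 in SPRET. In the time course the block gave 4, 8 and 5 H3K27ac calls at 1, 6 and 24 h, and over strains 4 for the mean and 1 for the difference in H3K27ac and 4 for the mean in H3K4me3. The block changed no other call by that much, and where a group has 2 pairs the samples share only a number. With DESeq2 the counts were 3 for H3K27ac in C57, 1 in BALB, 1 for Pol II in SPRET, 1, 5 and 6 for H3K27ac at 1, 6 and 24 h, 3 for Pol II at 6 h, 0 for H3K4me2 and CEBPb between genotypes, and 1, 0 and 0 for H3K27ac, H3K4me2 and H3K4me3 over strains. With edgeR they were 1 for H3K27ac in BALB, 1 for Pol II in SPRET, 5 and 1 for H3K27ac at 6 and 24 h, 1 for Pol II at 6 h, 0 for H3K4me2 and CEBPb between genotypes, and 1, 0 and 0 over strains. With median-ratio scaling they were 1 for H3K27ac in BALB, 5 and 1 at 6 and 24 h, 1 for Pol II at 6 h, 0 for CEBPb between genotypes, 1, 0 and 1 over strains, and by the fold rule 8 for H3K27ac in C57 and 3 in BALB. A pseudocount of 5 gave 1 and 5 H3K27ac calls at 1 and 6 h, 1 for PU.1 between genotypes, and by the fold rule 1 for H3K27ac in PWK and in SPRET and 0 for Pol II in C57, NOD, PWK and SPRET. The filter on low values gave 1 for PU.1 and 0 for CEBPb between genotypes. A limit of 10 kb, which leaves out the called regions by construction, gave 0 for Pol II in PWK and H3K27ac at 6 h. A fold threshold of 2 gave 3 for H3K27ac in BALB and 2 and 4 for Pol II in NOD and SPRET. The cause of the other moves was not tested.

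Leaving out each library in turn gave 0 to 1 calls for Pol II in C57, 0 to 0 in PWK, 0 to 1 for H3K27ac in BALB, NOD and PWK, and 0 to 12, 0 to 11, 0 to 4 and 0 to 1 for H3K4me2 in C57, BALB, NOD and PWK. In the time course it gave 0 to 5, 0 to 6 and 0 to 2 for H3K27ac at 1, 6 and 24 h, 0 to 4 and 0 to 1 for Pol II at 6 and 24 h, and 0 to 2 for EGR2 at 1 h. Between genotypes it gave 0 to 1 for H3K4me2, PU.1, CEBPb and PPARg at 24 h and for the PPARg interaction. Over strains it gave 1 to 4 for H3K27ac, 1 to 3 for Pol II, 7 to 10 for H3K4me2 and 0 to 3 for H3K4me3. By the fold rule it gave 2 to 8, 0 to 2, 2 to 4, 0 to 4 and 1 to 3 for H3K27ac in C57, BALB, NOD, PWK and SPRET, and 2 to 5, 2 to 4, 0 to 2, 3 to 6 and 1 to 2 for Pol II. The 0 limma calls for H3K27ac in C57 at 24 h say little. Without a filter limma recovered 0% of simulated 8-fold changes there, against 98% with the filter on low values and 97% for edgeR.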

Other observations

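Several cluster sites were listed for a single factor. PU.1 alone was listed 5.0 kb downstream of the Treml2 start in all 10 of its lists, 6.0 kb downstream of the Trem2 start in 9, 0.8 kb upstream of Trem1 in 8, and 18 kb downstream of the Treml1 start in 5. CEBPb alone was listed 1.5 kb downstream of the Trem3 start in 8 of its 10 lists, and STAT6 alone 4.4 kb downstream of the Trem2 start in 3 of 12. EGR2 and PU.1 without other factors were listed 10.9 kb downstream of the Treml2 start, in 5 lists each.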
